A study of Rattus norvegicus with 8 samples.

Results

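miR-223, miR-142, miR-150 and miR-342 are microRNAs (miRNAs) that white blood cells make in quantity. They were examined here in serum exosomes of rats with acid reflux esophagitis (RE) and of sham-operated control rats. The array carries 6 of their mature forms, taken by name: rno-miR-223-3p, rno-miR-223-5p, rno-miR-142-3p, rno-miR-142-5p, rno-miR-150-5p and rno-miR-342-3p (written below without the prefix for rat), out of 719 rat miRNAs. An exosome-rich fraction was precipitated from the serum of male Wistar rats, and RNA extracted from it was hybridised to single-colour arrays. There were 4 arrays for RE (replicates 5, 8, 9 and 10, labelled day 21, the chronic phase). Another 4 were for controls (replicates 1, 2, 3 and 4, whose labels give no day). RE was produced surgically, with a cuff around the duodenum near the pylorus and a ligature that narrows the stomach, so that gastric contents run back into the esophagus. Whether the 8 sera came from 8 different rats is not given in the sources used here, and each p-value is set against the sample-to-sample spread alone, which may be technical. The 4 RE arrays lay in one row of the slide and the 4 control arrays in the other, so slide row and group cannot be told apart, while each of the 4 columns of the slide held 1 array of RE and 1 of controls. In such bulk RNA, fewer vesicles from a cell type and less of a miRNA per vesicle cannot be told apart either.

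A mature miRNA guides a silencing complex to messenger RNAs that pair with its seed, the bases near its 5′ end, and lowers their output. miR-223 is made in neutrophils, monocytes and platelets and restrains granulocyte production and activation in mice. Both arms of the miR-142 hairpin are abundant in nearly all blood cell lineages and serve as general leukocyte markers. miR-150 marks mature B and T lymphocytes, where it represses the transcription factor c-Myb in mice, and miR-342-3p is high in lymphocytes and comes from an intron of EVL in humans. The ratio of miR-223 to miR-150 or miR-342 thus sets a miRNA known from myeloid cells against one known from lymphocytes.

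Mature sequences are shown for 5 members, because each of these carries its own seed, given in capitals as bases 2 to 8. RefSeq (build GRCr8) held 5 of the 6 members, and 0 of the other rat mature miRNAs among the 693 names in that table had the seed of any of these 5.
miR-223-3p: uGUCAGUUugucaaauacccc
miR-223-5p: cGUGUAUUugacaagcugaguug
miR-142-3p: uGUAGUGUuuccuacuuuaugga
miR-142-5p: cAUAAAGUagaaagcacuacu
miR-342-3p: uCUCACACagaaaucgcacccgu

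The hairpins of miR-223 and miR-142 are shown with both arms in capitals, because both arms of each are members. Mir223 lies at chrX:65151383-65151492 within the span of a long non-coding RNA gene, and Mir142 at chr10:73055104-73055190 within the span of the protein-coding gene Tspoap1. Mir342 lies at chr6:133329655-133329753 within the spans of Evl and of a long non-coding RNA gene, and Mir150 at chr1:104741487-104741571. The gene table gives no strand, so these are positions only.
Mir223: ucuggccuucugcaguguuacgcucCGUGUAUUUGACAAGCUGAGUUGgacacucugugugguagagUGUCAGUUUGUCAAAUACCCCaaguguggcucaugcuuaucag
Mir142: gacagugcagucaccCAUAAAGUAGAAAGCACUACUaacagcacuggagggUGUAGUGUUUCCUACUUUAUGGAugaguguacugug

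Each array detected between 144 and 245 rat miRNAs in RE and between 212 and 232 in controls, and 144 were detected on all 8. The deposited intensities are background-subtracted but not scaled between arrays. The 75th percentile of the signal over those 144 miRNAs was 1052, 1080, 239 and 442 in RE replicates 5, 8, 9 and 10, and 584, 494, 558 and 915 in control replicates 1, 2, 3 and 4. RE replicate 9 was thus the dimmest array, with the fewest detected miRNAs. Each array was divided by its own percentile and taken to log2, so that a log2 scaled signal of 0 equals the 75th percentile of its array. The study's own methods scale by the percentile of all measurements instead, called here the methods' scaling. RE replicate 9 alone detected too few miRNAs for that percentile to fall on a detected one. A miRNA entered the comparison when all 4 arrays of RE, of control or of both detected it, which left 192 for limma, with p-values adjusted over all 192 by the Benjamini-Hochberg method.

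Of the 6 members, 5 were detected on all 8 arrays and miR-223-5p on 0. The 5 detected members had 20 spots each, all 800 spots over the 8 arrays were well above background, 0 were saturated and 19 carried the software's outlier mark. The software's error of the total signal was between 7.1% and 9.6% of the signal, which is small beside the differences in total signal between arrays before scaling. After scaling, the narrowest gaps between single arrays are smaller than that error. The scaled signal of miR-142-3p, for example, was 0.687 in control replicate 1 and 0.690 in control replicate 4. The order of arrays this close is not settled by the measurement. Together the members held 3.93%, 4.05%, 1.75% and 1.46% of the summed signal in RE replicates 5, 8, 9 and 10, and 2.14%, 1.49%, 1.94% and 2.91% in control replicates 1, 2, 3 and 4. The shares of the RE arrays thus lay on both sides of the control shares.

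Of the 5 detected members, 0 changed in RE at an adjusted p under 0.05 (limma). At an unadjusted p under 0.05 the count was also 0, as it was by the methods' t-test, run on the scaled values used here, after their Bonferroni correction or, as a further alternative, after Benjamini-Hochberg adjustment. Over all 192 miRNAs 2 passed, 1.04%, both lower in RE, and 5 (2.6%), all lower, had an unadjusted p under 0.05. The tested miRNAs that RE replicate 9 did not detect entered through the controls alone and took the floor, the lowest value possible, on that array. With the filter to the 144 miRNAs detected on all 8 arrays, 0 were called lower and 0 higher. The groups overlapped for each of the 5 members, beside 3 of 192 miRNAs (1.56%) whose groups did not. The point estimates of the members ran from a log2 fold change of 0.69 for miR-142-3p to -0.47 for miR-342-3p, and 3 of the 5 were above 0, beside 18.8% of all tested miRNAs, while all 5 are above 0 under the methods' scaling, which moves the median of all tested miRNAs to 1.39. The median of all 192 was -0.29, and relative to it miR-223-3p stood at 0.45, miR-142-3p at 0.98, miR-142-5p at 0.37, miR-150-5p at 0.030 and miR-342-3p at -0.18. Both the 18.8% and this median include the miRNAs that entered through the controls alone. Over the 144 miRNAs detected on all 8 arrays, as the 5 members were, the median was -0.19. Relative to that median the members stood at 0.36, 0.88, 0.27, -0.068 and -0.27 in the same order. Over all alternatives these distances from the median ran from 0.13 to 0.81 for miR-223-3p, from 0.58 to 1.72 for miR-142-3p and from 0.056 to 0.99 for miR-142-5p. They took both signs for the lymphoid members, from -0.26 to 0.42 for miR-150-5p and from -0.47 to 0.13 for miR-342-3p, which stood above the median without control replicate 4, without RE replicate 10 and with array quality weights.

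**Figure D1:**
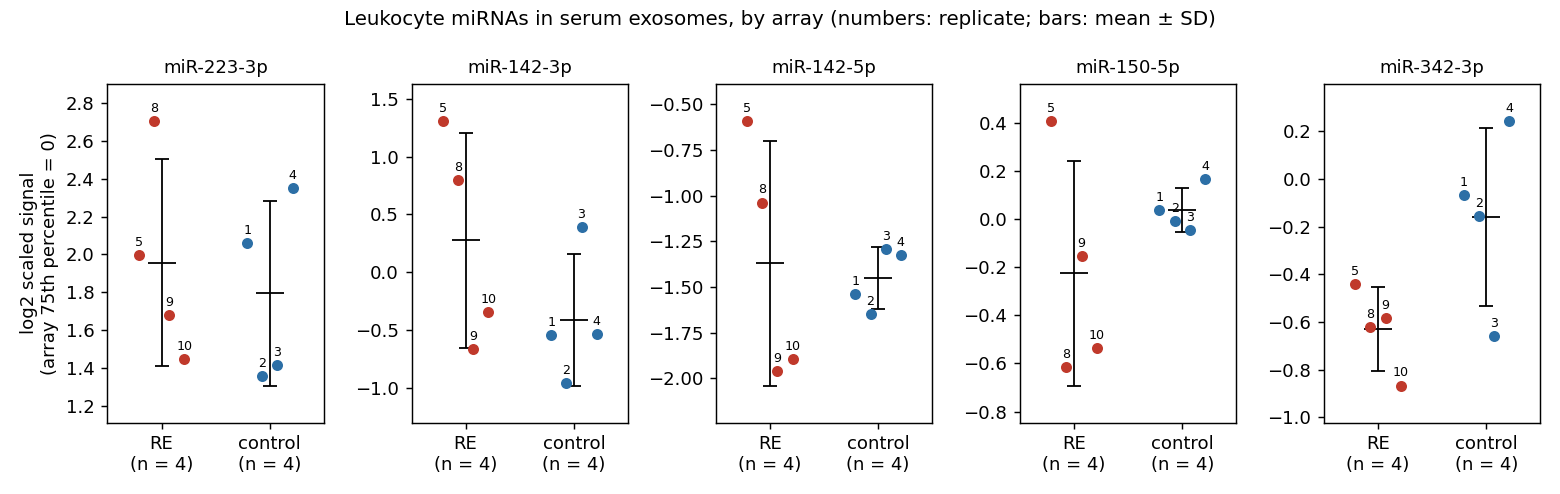
Log2 scaled signal of the 5 detected members on each array (vertical axis, 0 is the 75th percentile of the array, a separate range for each panel), RE left and control right, with replicate numbers beside the points and the mean ± SD as bars. The groups overlap in every panel. The controls of miR-150-5p lie closest together, near the scaling percentile itself, with an SD of 0.092.

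miR-223-3p, the myeloid member, did not separate the groups. Its total signal was 4201, 7047, 766 and 1204 in RE replicates 5, 8, 9 and 10, and 2437, 1265, 1488 and 4664 in control replicates 1, 2, 3 and 4. After scaling the log2 signal was 1.998, 2.71, 1.68 and 1.45 in RE, against 2.06, 1.36, 1.42 and 2.35 in controls in the same order. RE replicate 8 was above every control, while replicates 5, 9 and 10 lay within the control range. The mean was 1.96 ± 0.55 in RE and 1.80 ± 0.49 in controls (SD, n = 4 each), a log2 fold change of 0.16 (SE 0.39, adjusted p = 0.927 from limma). The 95% confidence interval of the ratio of RE to control ran from 0.61-fold to 2.05-fold, and without RE replicate 8 the estimate is -0.089.

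miR-223-5p, the other arm of the same hairpin, was not detected on any of the 8 arrays. The software lists it at 0.1, the value of every undetected miRNA, and 0 of its 20 spots were well above background on any array. The total signal of its 3 probes lay between -1.84 and 0.07, and the lowest signal of a detected miRNA on these arrays was 3.29. Its longest probe is caactcagcttgtcaAA, with the bases that the shortest probe lacks in capitals, and pairs with bases 7 to 23 of the arm. Signals of different probes cannot be set against each other, so no ratio between the arms is given.

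With this scaling miR-142-3p had the highest log2 fold change of all 192 tested miRNAs, and it was also the member with the widest spread. Its total signal was 2611, 1880, 151 and 348 in RE replicates 5, 8, 9 and 10, and 401, 254, 733 and 631 in control replicates 1, 2, 3 and 4. The log2 scaled signal was 1.31, 0.80, -0.66 and -0.34 in RE, against -0.54, -0.96, 0.39 and -0.53 in controls. RE replicates 5 and 8 were above all controls, replicate 9 was below 3 of them, and control replicate 3 was above RE replicates 9 and 10. The mean was 0.28 ± 0.93 in RE and -0.41 ± 0.57 in controls (SD, n = 4 each), a log2 fold change of 0.69 (SE 0.51, adjusted p = 0.912 from limma), with adjusted p-values from 0.0953 upward over the alternatives. The two-sided exact permutation test over the 70 splits of the arrays gave p = 0.229 (n = 4 each), where 0.0286 is the smallest p possible. The 95% interval of the ratio ran from 0.72-fold to 3.59-fold. Without RE replicate 5 the estimate is 0.34 and without replicate 9 it is 1.11.

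miR-142-5p comes from the same hairpin, and its estimate was close to 0. The total signal was 699, 526, 61.4 and 119 in RE replicates 5, 8, 9 and 10, and 201, 158, 228 and 365 in control replicates 1, 2, 3 and 4. The log2 scaled signal was -0.59, -1.04, -1.96 and -1.89 in RE, against -1.54, -1.65, -1.29 and -1.32 in controls. The RE arrays stood on both sides of the controls, with replicates 5 and 8 above all 4 and replicates 9 and 10 below all 4. The mean was -1.37 ± 0.67 in RE and -1.45 ± 0.17 in controls (SD, n = 4 each), a log2 fold change of 0.080 (SE 0.37, adjusted p = 0.960 from limma). The 95% interval ran from 0.59-fold to 1.90-fold, and without RE replicate 5 or 8 the estimate is -0.18 or -0.031.

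miR-150-5p, the B and T cell member, was nearly constant among controls after scaling. Its control values lay close to the scaling percentile itself, so their small SD is not independent of the scaling. The total signal was 1398, 705, 215 and 305 in RE replicates 5, 8, 9 and 10, and 599, 491, 541 and 1026 in control replicates 1, 2, 3 and 4. The log2 scaled signal was 0.41, -0.62, -0.15 and -0.54 in RE, against 0.038, -0.0071, -0.046 and 0.17 in controls. Replicates 8, 9 and 10 were below every control and replicate 5 was above every control. The mean was -0.22 ± 0.47 in RE and 0.038 ± 0.092 in controls (SD, n = 4 each), a log2 fold change of -0.26 (SE 0.31, adjusted p = 0.912 from limma) that turns to 0.051 with array quality weights and to 1.44 under the methods' scaling. The 95% interval ran from 0.51-fold to 1.36-fold. The estimate is -0.47 without RE replicate 5, -0.13 without replicate 8, -0.17 without replicate 9 and -0.16 without replicate 10. The exact permutation test gave p = 0.314 (n = 4 each).

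miR-342-3p, the second lymphocyte member, had the lowest estimate, and its RE arrays had the smallest SD of the 5 members. The total signal was 774, 702, 160 and 242 in RE replicates 5, 8, 9 and 10, and 556, 443, 354 and 1083 in control replicates 1, 2, 3 and 4. The log2 scaled signal was -0.44, -0.62, -0.58 and -0.87 in RE, against -0.069, -0.16, -0.66 and 0.24 in controls. All 4 RE arrays were below the control mean, 3 of the 4 controls were above every RE array, and control replicate 3 lay among the RE arrays. The mean was -0.63 ± 0.18 in RE and -0.16 ± 0.37 in controls (SD, n = 4 each), a log2 fold change of -0.47 (SE 0.29, adjusted p = 0.912 from limma) that turns to 1.23 under the methods' scaling. The 95% interval ran from 0.45-fold to 1.15-fold, and the exact permutation test gave p = 0.114 (n = 4 each).

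**Figure D2:**
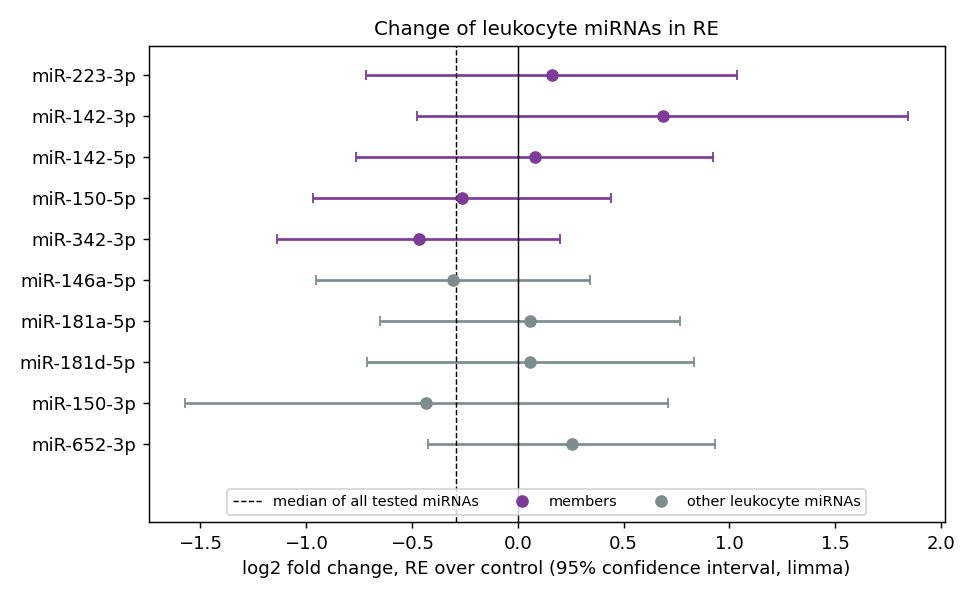
Log2 fold change of RE over control with its 95% confidence interval from limma (horizontal axis) for the 5 detected members and for the other leukocyte miRNAs detected on all 8 arrays, with the dashed line at the median of all 192 tested miRNAs, -0.29. Every interval includes 0, and under the methods' scaling the 2 lymphoid estimates turn above 0.

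The spread among samples was larger in RE than in controls for 4 of the 5 detected members. It was 0.67 in RE against 0.17 in controls for miR-142-5p and 0.47 in RE against 0.092 in controls for miR-150-5p (SD of the log2 scaled signal, n = 4 each), while miR-342-3p had 0.18 in RE against 0.37 in controls. The controls of miR-150-5p lay near the scaling percentile, so their SD of 0.092 is not independent of the scaling. Of the 144 miRNAs detected on all arrays, 95 (66.0%) had the larger SD in RE. The median SD of the 144 was 0.57 in RE and 0.48 in controls. Before scaling, the highest array was 17.3 times the lowest for miR-142-3p and 6.5 times the lowest for miR-150-5p, and after scaling 4.81 times and 2.04 times.

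Every detected member was read by a pair of probes of 10 spots each, which differ by a single base at the 3′ end of the probe. The pairs are shown for miR-142-3p and miR-150-5p, with the added base in capitals. For miR-142-3p the longer probe pairs with bases 1 to 23 and the shorter with bases 2 to 23 of the mature miRNA.
miR-142-3p, shorter probe: tccataaagtaggaaacactac
miR-142-3p, longer probe: tccataaagtaggaaacactacA
miR-150-5p, shorter probe: cactggtacaagggtt
miR-150-5p, longer probe: cactggtacaagggttG

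The probes of a member gave nearly the same log2 difference, RE minus control. For the shorter and then the longer probe it was 0.70 and 0.68 in miR-142-3p, 0.18 and 0.15 in miR-223-3p, 0.099 and 0.060 in miR-142-5p, and -0.49 and -0.45 in miR-342-3p. The pair of miR-150-5p was furthest apart, with -0.12 for the shorter and -0.28 for the longer probe. Both probes of miR-142-3p had larger differences than both probes of miR-142-5p, the other arm of the hairpin.

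Ratios between members on the same array do not depend on how arrays are scaled. The 7 ratios were compared between groups with two-sided exact permutation tests and adjusted over the 7 by the Benjamini-Hochberg method. None passed at an adjusted p under 0.05. The smallest p this test can give, 0.0286, becomes 0.200 after adjustment when 1 ratio alone reaches it. None could pass unless most of the 7 separated completely, so this result is not read as the absence of a difference. The level of a ratio has no meaning across probes, and only its difference between groups is read.

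The ratio of miR-223-3p to miR-342-3p, myeloid to lymphoid, was higher in all 4 RE arrays than in any control. Its log2 was 2.44, 3.33, 2.26 and 2.31 in RE replicates 5, 8, 9 and 10, and 2.13, 1.51, 2.07 and 2.11 in control replicates 1, 2, 3 and 4. The gap between the groups was narrow, with RE replicate 9 just above control replicate 1. The mean was 2.59 ± 0.50 in RE and 1.96 ± 0.30 in controls (SD, n = 4 each), a difference of 0.63 (SE 0.29), or 1.55-fold, with p = 0.0286 from the exact test, the smallest it can give, and 0.200 after adjustment. Among all 10296 pairs of miRNAs detected on every array, 1.14% had ratios whose groups did not overlap. Of the 143 ratios of another miRNA to miR-342-3p, this was the single ratio (0.699%) that was higher in RE without overlap. Of the 143 ratios of another miRNA to miR-223-3p, 4 (2.8%), that of miR-342-3p among them, were lower in RE without overlap, and 0 were higher. Without RE replicate 8 the difference is 0.38. With another background correction (normexp) it is 0.50, with an adjusted exact permutation p of 0.400. The groups overlap with normexp, since full separation would give an adjusted p of 0.200 or less.

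**Figure D3:**
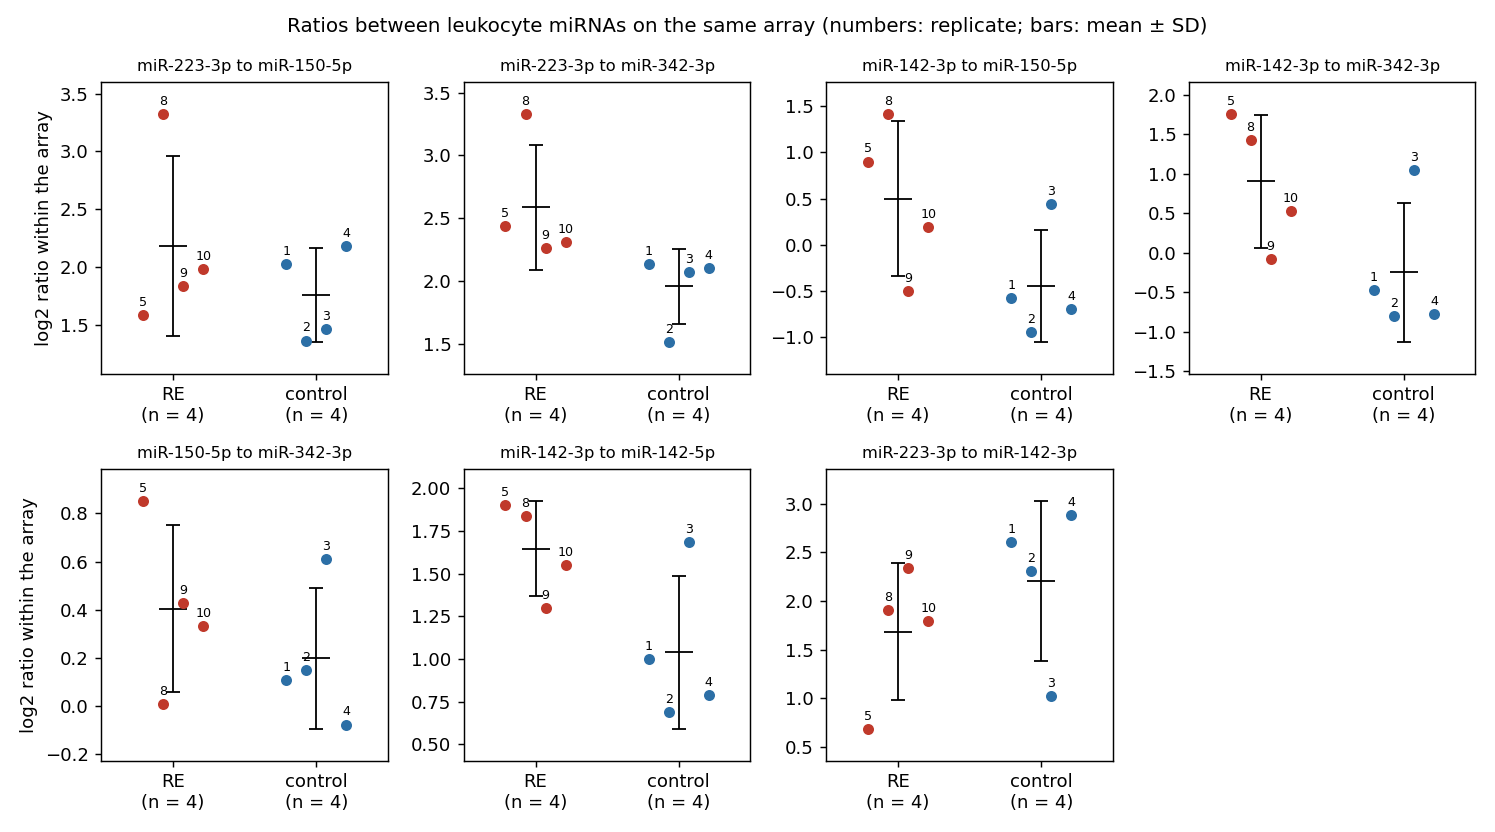
Log2 ratio of 2 members on the same array (vertical axis, a separate range for each panel) for 7 pairs, RE left and control right, with replicate numbers beside the points and the mean ± SD as bars. The groups overlap in 6 panels. In that of miR-223-3p to miR-342-3p all 4 RE arrays lie narrowly above the controls, a separation that is lost with normexp.

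With miR-150-5p as the lymphoid partner the same contrast was not separated. The log2 ratio of miR-223-3p to miR-150-5p was 1.59, 3.32, 1.83 and 1.98 in RE, against 2.02, 1.36, 1.46 and 2.18 in controls. Only RE replicate 8 lay above all controls. The difference was 0.42 (SE 0.44, exact permutation p = 0.457, n = 4 each), and without RE replicate 8 it is 0.043.

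miR-142-3p also had higher mean ratios to the lymphoid members in RE, with wider spreads. To miR-342-3p its log2 ratio was 1.75, 1.42, -0.081 and 0.52 in RE, against -0.47, -0.80, 1.05 and -0.78 in controls, a difference of 1.15 (SE 0.61, exact permutation p = 0.114, n = 4 each). All 4 RE arrays were above the control mean, and control replicate 3 was above RE replicates 9 and 10. To miR-150-5p the difference was 0.95 (SE 0.52, exact permutation p = 0.143, n = 4 each), with RE replicates 5 and 8 above all controls. These ratios share members with each other and are not separate evidence.

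The arms of the miR-142 hairpin did not keep a constant ratio. The log2 ratio of miR-142-3p to miR-142-5p was 1.90, 1.84, 1.30 and 1.55 in RE replicates 5, 8, 9 and 10, and 0.998, 0.69, 1.69 and 0.79 in control replicates 1, 2, 3 and 4. Control replicates 1, 2 and 4 lay below every RE array, and control replicate 3 lay among them. The mean was 1.65 ± 0.28 in RE and 1.04 ± 0.45 in controls (SD, n = 4 each), a difference of 0.61 (SE 0.26), or 1.52-fold, with p = 0.0857 from the exact permutation test and 0.250 after adjustment. Without control replicate 3 the difference is 0.82 and without control replicate 2 it is 0.49.

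The ratio between the lymphoid members had the smallest difference of the 7, and its groups overlapped. For miR-150-5p to miR-342-3p the log2 ratio was 0.85, 0.0062, 0.43 and 0.33 in RE, against 0.11, 0.15, 0.61 and -0.078 in controls, a difference of 0.21 (SE 0.23, exact permutation p = 0.400, n = 4 each). It is 0.057 without RE replicate 5, 0.11 without control replicate 4, and 0.34 without RE replicate 8 or without control replicate 3. For miR-223-3p to miR-142-3p the difference was -0.52 (SE 0.54, exact permutation p = 0.400, n = 4 each), and it is -0.19 without RE replicate 5, -0.30 without control replicate 4 and -0.92 without control replicate 3.

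The members did not move as a single group over the 8 arrays. The measure of likeness is the SD of the log2 ratio of 2 miRNAs over the 8 arrays, where a small SD means that the pair kept its ratio. miR-150-5p and miR-342-3p were the closest pair of members, with an SD of 0.32, and miR-142-3p and miR-342-3p the furthest apart, with 1.01. The arms of miR-142 had 0.47, and miR-223-3p had 0.46 with miR-142-5p, 0.51 with miR-342-3p, 0.62 with miR-150-5p and 0.76 with miR-142-3p. For comparison, the median SD of a member against the other 143 miRNAs was between 0.65 for miR-150-5p and 1.04 for miR-142-3p.

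**Figure D4:**
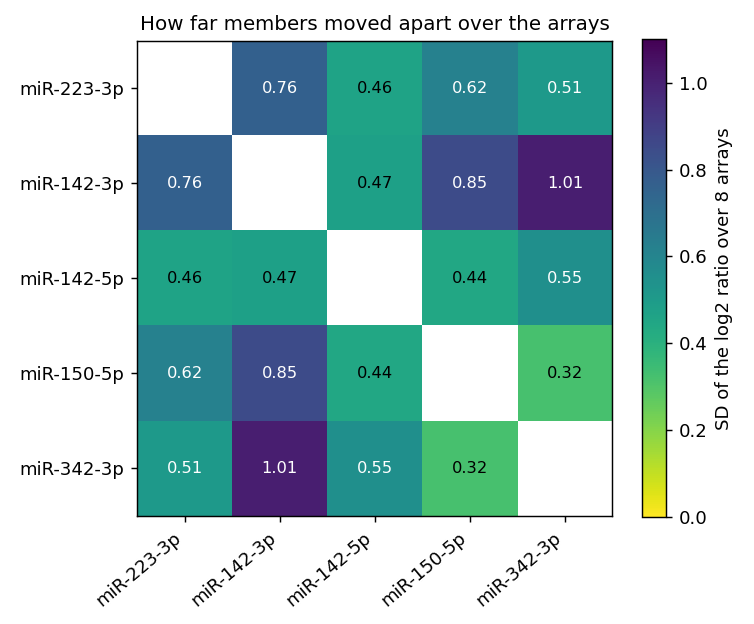
SD over the 8 arrays of the log2 ratio between each pair of members (colour and number in each cell, rows and columns are the 5 detected members). The lymphoid pair has the smallest SD, 0.32, and miR-142-3p with miR-342-3p the largest, 1.01.

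The miRNAs whose ratio to a member was most constant differed from member to member. For miR-223-3p they were miR-20b-5p, miR-130b-3p and miR-17-5p (SD 0.20, 0.21 and 0.24), of which miR-20b-5p and miR-17-5p belong to the same seed family. For miR-142-3p they were miR-29b-3p, miR-21-5p and miR-26b-5p (SD 0.31, 0.35 and 0.39), and for miR-142-5p they were miR-26b-5p, miR-21-5p and miR-29a-3p (SD 0.23, 0.25 and 0.29). The other arm of the hairpin ranked 5 among the 143 for miR-142-3p and miR-142-3p ranked 43 for miR-142-5p. For miR-150-5p they were miR-22-3p, miR-30a-5p and miR-23b-3p (SD 0.27, 0.31 and 0.31), followed by miR-342-3p at rank 4. For miR-342-3p they were miR-24-3p, miR-23a-3p and miR-30b-5p (SD 0.21, 0.26 and 0.28), with miR-150-5p at rank 8. These SDs are descriptions over the same 8 arrays, and a factor shared by a whole array cancels in each ratio.

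The members also differ in base composition. The share of G and C was 34.8% in miR-142-3p and 33.3% in miR-142-5p, and among the miRNAs closest to them it was 34.8% in miR-29b-3p, 36.4% in miR-21-5p, 33.3% in miR-26b-5p and 40.9% in miR-29a-3p. It was 42.9% in miR-223-3p, beside 47.8% in both miR-20b-5p and miR-17-5p and 45.5% in miR-130b-3p. It was 52.2% in miR-342-3p, beside 54.5% in miR-24-3p and 47.6% in miR-23a-3p. Closeness to a member thus went with a like share in some of these miRNAs and not in others. Across the 132 of the 144 miRNAs detected on all arrays that have a RefSeq sequence, the log2 fold change had a Pearson correlation of -0.32 with the G and C share, and across the 174 of the 192 tested miRNAs that have one it was -0.15. Over the 132, the median log2 fold change was -0.10 in the 63 miRNAs below the median share and -0.28 in the 69 at or above it. The points share the same 8 arrays, and the part of base composition in the members' values was not tested.

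Other miRNAs known from immune cells were on the array as 11 names, of which 9 were tested, 5 were detected on all arrays and 2, miR-342-5p and miR-511-5p, on none. Of the 9, limma called 0 higher or lower in RE at an adjusted p under 0.05, beside 1.04% of all tested miRNAs, and 0 had an unadjusted p under 0.05, beside 2.6%. Their median log2 fold change was -0.31, beside -0.29 for all tested miRNAs, and 3 of the 9 were above 0; it turns to 0.066 with the mean processed signal, 0.086 with normexp, 0.058 with the filter to all 8 arrays, 0.11 without RE replicate 9 and 1.26 under the methods' scaling. Among those detected on all arrays, miR-652-3p had 0.25 (SE 0.30), miR-181d-5p 0.060 (SE 0.34), miR-181a-5p, a regulator of lymphocyte signalling strength, 0.058 (SE 0.31), and miR-146a-5p, a brake on innate immune signalling, -0.31 (SE 0.29). miR-150-3p, the opposite arm of miR-150-5p, had -0.43 (SE 0.50). The remaining 4, miR-146b-5p, miR-181b-5p, miR-181c-5p and miR-511-3p, were detected on 3 RE arrays and 4 control arrays, with RE replicate 9 the one without. Their log2 fold changes, which take the floor on that array, were -0.90 (SE 0.81), -0.97 (SE 0.81), -0.059 (SE 0.94) and -1.07 (SE 0.91).

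Markers of other blood cells were measured on the same arrays. miR-451-5p, the main miRNA of red blood cells, had a total signal of 7252, 18963, 2856 and 5811 in RE replicates 5, 8, 9 and 10, and 4921, 4975, 9097 and 19351 in control replicates 1, 2, 3 and 4. The log2 ratio of miR-451-5p to miR-23a-3p, an index of hemolysis, was 1.86 ± 0.61 in RE and 1.89 ± 0.65 in controls (SD, n = 4 each), a difference of -0.034 with p = 1 from the exact permutation test. It was lowest in RE replicate 5 (0.96) and control replicate 1 (1.11). RE replicate 5 was also the array with the highest miR-142-3p, miR-142-5p and miR-150-5p, but not the highest miR-223-3p or miR-342-3p. The 2 red blood cell markers and the 3 platelet markers on the array included 0 called miRNAs, beside 1.04% of all tested, with log2 fold changes of -0.16 for miR-451-5p, 0.26 for miR-144-3p, 0.26 for miR-126a-3p and -0.29 for miR-22-3p. miR-122-5p, the main miRNA of liver, was detected on 3 RE arrays and 4 control arrays, and miR-191a-5p, a platelet marker, on 2 RE arrays and 4 control arrays. With undetected arrays at the floor, their log2 fold changes were -2.08 (SE 1.08) and -1.13 (SE 0.73), and neither was called. The part of red blood cells and platelets in the values of the members was not tested, and platelets themselves carry miR-223.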

How the data were processed

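Serum exosomal RNA was labelled with Cy3 and hybridised by the authors to the Agilent Rat miRNA Microarray (release 19), on 1 slide. The deposited files hold intensity values on a linear scale from Feature Extraction 10.10.1.1, background-subtracted and summed per miRNA, without scaling between arrays. The series' value table matched the processed spot intensity at all 15095 features (tolerance 1e-06) and was not used further. Total signals were scaled by the 75th percentile of the miRNAs that all 8 arrays detected, raised to a floor of 0.0035 where lower (the smallest scaled signal of any detected miRNA) and taken to log2. In the methods' scaling, values below 0.01 are set to 0.01 and divided by the percentile of all measurements.

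RE and control were compared two-sided with limma 3.58.1 in R 4.3.3 (Benjamini-Hochberg threshold 0.05) after testing on simulated data, and single ratios by exact permutation of the arrays. The members and lists were chosen with earlier results of these data known. The text names all members, the other leukocyte miRNAs detected on all 8 arrays, the 3 miRNAs with the most constant ratio to each member, and the blood and liver markers; the other leukocyte miRNAs detected on fewer arrays were added after their values were seen. Alternatives changed the signal, background correction (normexp, offset 50), scaling, filter, variance model, test or left out 1 array. The methods' t-test, with their Bonferroni correction, was run on the scaled values used here, also with Benjamini-Hochberg adjustment. Tables and figures used Python 3.11.15, pandas 2.3.3, numpy 2.4.6 and matplotlib 3.10.9. Precision was limited by the number of arrays (median SE of a log2 fold change 0.48). Sequences and gene positions are from RefSeq on GRCr8. RT-PCR and tissue were not analysed here.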

Additional observations from a re-analysis of the deposited data

Results flagged for a closer look

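Each value below stood apart in its group of 4, since most of the group's range was the gap between it and the next sample. Of 34 groups of 4 compared in this way, 4 held such a value, and chance marks about 1 group in 20, or 1.7 of 34. In the log2 ratio of miR-223-3p to miR-342-3p, RE replicate 8 stood at 3.33 (nearest RE array 2.44) and control replicate 2 at 1.51 (nearest control 2.07). Both lie away from the other group, and without RE replicate 8 the difference between the groups is 0.38 in place of 0.63. Control replicate 2 also had the lowest control values of miR-181a-5p, at a log2 scaled signal of -3.38 (nearest control -2.88), and of miR-652-3p, at -2.87 (nearest control -2.24).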

How the results depend on the processing

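No member was called in any of the 22 alternatives and 0 miRNAs were called higher in any, while the number called lower, 2 here, was 0 with the mean processed signal, with normexp, under the methods' scaling and with the filter to all 8 arrays. It was 1 with no scaling, no filter, eBayes with trend and robust, scaling by the summed signal (chosen after seeing the data), the slide column as a block (also chosen after seeing the data) and the methods' t-test with either correction, 3 with array quality weights, and 1 to 2 with 1 array left out (1 without RE replicate 8 or 10 or control replicate 1, 2 or 3). The log2 fold change of miR-223-3p ran from -0.089 (without RE replicate 8) to 0.37 with 1 array left out, that of miR-142-5p from -0.18 (without RE replicate 5; -0.031 without replicate 8) to 0.39, that of miR-150-5p turned to 1.44 under the methods' scaling and 0.051 with array quality weights, and that of miR-342-3p to 1.23 under the methods' scaling. The methods' scaling gives a median of 1.39 over all tested miRNAs, against -0.29 in the main setting. RE replicate 9 alone detected so few of the 719 miRNAs, 144 against 197 or more on the other arrays, that its percentile is the value of an undetected miRNA. miR-142-3p stayed above 0 in all 22 alternatives, from 0.34 without RE replicate 5 to 2.38 under the methods' scaling, with 0.0953 as its lowest adjusted p (limma with array quality weights). The filters, eBayes with trend and robust, the t-tests and the slide column can change only the p-values and not a member's estimate, so they do not bear on its sign. The 7 ratios kept their direction in all 10 alternatives each. None passed after adjustment, as none could unless most of the 7 separated completely. The groups of miR-223-3p to miR-342-3p overlapped with normexp. No paired analysis was possible because RE and control share no replicate numbers. The slide column, which each group fills once, cannot move an estimate, and with it as a block the adjusted p was 0.980 for each member (limma). The 95% intervals of the members bound what 4 arrays against 4 could resolve.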
